A study of Mus musculus with 9 samples.

Results

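Desmosomes are the spot-like junctions that tie the keratin filaments of neighbouring epithelial cells together. Their desmosomal cadherins, the desmogleins and desmocollins, meet in the space between cells, and plakoglobin and the plakophilins bridge the cadherin tails to desmoplakin, which holds the keratin filaments. In stratified epithelium Dsg1 and Dsc1 proteins are known from the upper, differentiating layers and Dsg3 and Dsc3 from the lower ones, while Dsg2 and Dsc2 are also made by simple epithelium. The mouse stomach has both kinds, a keratinised forestomach and a glandular part.

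The 10 desmosome genes described here are the desmogleins Dsg1a, Dsg1b, Dsg2 and Dsg3, the desmocollins Dsc1, Dsc2 and Dsc3, desmoplakin (Dsp), plakoglobin (Jup) and periplakin (Ppl), a plakin that also sits at the edge of the desmosome and in the cornified envelope. They were found by name among the non-control probes, where 16 of 55681 probes read them, and all 10 were among the 21723 genes tested. The labels give 5 mice as knockouts (KO 1 to KO 5) of C/EBPβ, the transcription factor made from Cebpb, and the 4 others as wild type (WT 1 to WT 4). The protocol and the design text give the time of killing as birth, whereas the source label has the word old, and birth is taken as the age here. Each mouse was read on 1 single-colour Agilent array. The strain, the part of Cebpb that was removed and whether the mice were littermates are not given in the sources used here. A level here is the log2 processed signal after subtraction of the 75th percentile of its own array, so 0 is the signal that 1 probe in 4 exceeds.

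The array percentile ran from 245 to 408 signal units in KO and from 195 to 352 in WT, and 50.9% to 57.2% of spots per array were well above background. Cebpb had levels of −2.54, −2.65, −1.37, −1.81 and −1.46 on KO 1 to KO 5, against 3.94, 3.42, 3.47 and 3.19 on WT 1 to WT 4. Every KO array was far below every WT array, with a log2 difference of −5.47 ± 0.30 (SE, limma adjusted p = 0.000131). The Cebpb probe was still well above background on all 5 KO arrays. Whether this probe lies in the removed part of the gene is not known here. Every listed marker of squamous differentiated cells (15 of 15), squamous basal cells (10 of 10) and pit and neck cells (10 of 10) passed the detection filter. Of the 9 cardiomyocyte genes tested, the heart being another organ with desmosomes, 1 fell, the natriuretic peptide gene Nppa (limma adjusted p = 0.0107), where 0.0783% of all genes were called lower. Y-linked genes were low on KO 2, KO 4 and KO 5 and on no WT array, so Y-linked signal was unbalanced between the genotypes. Sex is not in the labels, and its part in the differences was not separated from that of genotype. WT 4 stood apart from the other WT arrays. It was the lowest WT array for 36.9% of all genes and the highest for 39.7%, and for the desmosome genes it was the lowest WT array in 7 of 10.

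For Dsp and Jup a probe within the coding sequence and the promoter are printed, since these are the cytoplasmic partners that every desmosomal cadherin shares. The Dsp probe, from position 5665 of the transcript, spans chr13:38285480-38286579 (mm9, plus strand) and so crosses an intron. The Jup probe starts at position 1875 and lies on chr11:100238038-100238097 (mm9, minus strand). The promoters are the RefSeq windows of 250 bases before to 50 after the start on GRCm38.p6, chr13:38151044-38151343 for Dsp and chr11:100397741-100398040 for Jup. Capitals mark the GC box GGGCGG on either strand, found at 4 places in the Dsp window and 2 in the Jup window and present in 35.7% of the 32851 promoter windows.
Dsp probe: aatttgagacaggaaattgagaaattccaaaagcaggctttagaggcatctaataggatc
Jup probe: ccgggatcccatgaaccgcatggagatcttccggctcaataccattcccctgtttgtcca
Dsp promoter: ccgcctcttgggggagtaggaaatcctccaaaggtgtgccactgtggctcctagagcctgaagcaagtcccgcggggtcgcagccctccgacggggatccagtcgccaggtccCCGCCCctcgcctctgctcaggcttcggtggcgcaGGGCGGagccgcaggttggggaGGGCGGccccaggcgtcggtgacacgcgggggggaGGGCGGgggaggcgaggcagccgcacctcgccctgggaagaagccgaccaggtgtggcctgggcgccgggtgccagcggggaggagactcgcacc
Jup promoter: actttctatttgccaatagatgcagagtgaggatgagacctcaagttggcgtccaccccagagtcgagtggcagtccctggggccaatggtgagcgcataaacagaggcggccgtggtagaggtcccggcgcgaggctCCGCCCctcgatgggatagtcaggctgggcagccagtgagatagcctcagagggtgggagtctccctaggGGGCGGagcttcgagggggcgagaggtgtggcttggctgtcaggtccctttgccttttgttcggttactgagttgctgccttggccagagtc
The letters TTGCNNAA, a core C/EBP motif searched on both strands, are in neither window and are in 10.8% of all windows. Of the 300 bases of each window, G and C make up 73.0% in Dsp and 60.7% in Jup, against a median of 52.7% over all windows.

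None of the 10 desmosome genes changed between the genotypes by limma (adjusted p below 0.05 over all genes), where 0.207% of all genes did and 0.0783% were called lower. At an unadjusted p below 0.05 the count was also 0 of 10, against 8.84% of all genes (3.45% lower), and for 0 of 10 did the KO and WT arrays fail to overlap, against 3.40%. On all 9 arrays, normexp background correction gave 3 of 10 at an unadjusted p below 0.05 (Dsg1a, Dsc1 and Dsc3, against 8.59% of all genes), with none called. Array weights gave 6 of 10 (against 24.7%), also with none called. That fit gave WT 4 the lowest weight (0.215, against 3.92 for WT 2), so it comes close to leaving WT 4 out. Nothing separate is concluded from its count. The fitted difference was below 0 for 6 and above 0 for 4, with a median of −0.12, beside 47.0% below 0, 53.0% above 0 and a median of 0.02 over all genes. With all 126 ways of assigning the genotypes enumerated, the two-sided exact permutation p ran between 0.159 for Dsc1 and 0.913 for Ppl, where 0.00794 is the smallest this design allows. The members nevertheless fell into sets that moved differently from array to array, and these are described by role. Fewer epithelial cells of a type and less RNA per cell cannot be told apart in whole stomachs.

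**Figure D1:**
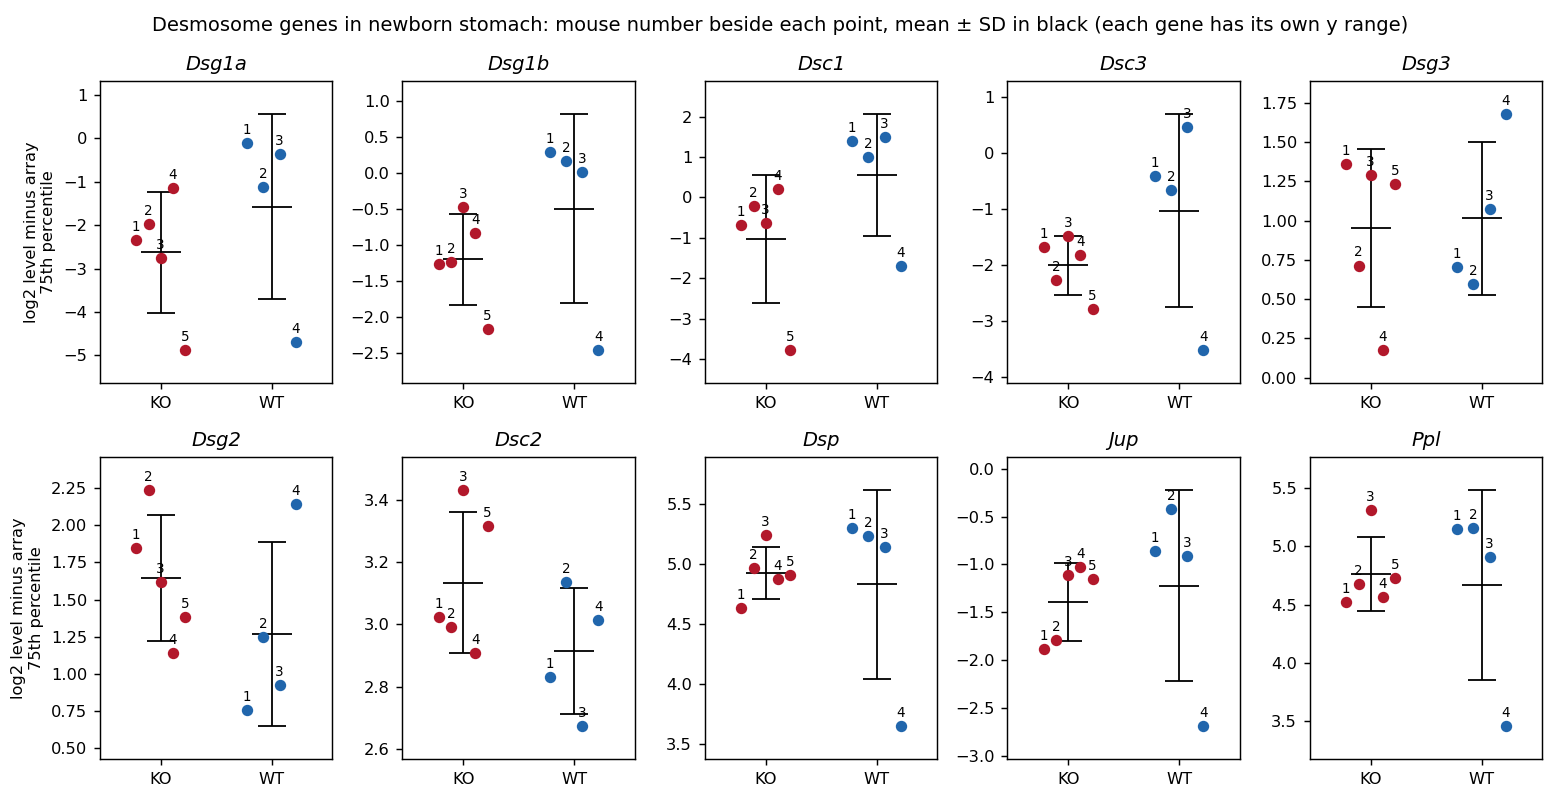
Each panel plots 1 desmosome gene, with the log2 level minus the array's 75th percentile on the y axis (each panel with its own range), KO arrays on the left in red and WT arrays on the right in blue. The number beside a point is the mouse and black bars are the mean ± SD. WT 4 is the lowest WT point in Dsg1a, Dsg1b, Dsc1, Dsc3, Dsp, Jup and Ppl and the highest in Dsg2 and Dsg3, and KO 5 is the lowest KO point in the first 4 of these.

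The cadherins of differentiating stratified cells lay lower on the KO arrays than on WT 1, WT 2 and WT 3, without passing the test. Dsc1, the desmocollin of the upper layers, had levels of −0.68, −0.22, −0.63, 0.20 and −3.78 on KO 1 to KO 5, against 1.40, 1.00, 1.49 and −1.70 on WT 1 to WT 4. KO 5 and WT 4 were far below their groups, and WT 4 lay below 4 of the 5 KO arrays, so the groups overlapped. The mean was −1.02 ± 1.58 in KO (SD, n = 5) and 0.55 ± 1.51 in WT (SD, n = 4), a difference of −1.57 ± 0.88 (SE, limma adjusted p = 0.680), with a 95% interval of −3.53 to 0.39.

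Dsg1a, a desmoglein of the same layers, had levels of −2.35, −1.98, −2.75, −1.14 and −4.88 on KO 1 to KO 5, against −0.10, −1.12, −0.35 and −4.70 on WT 1 to WT 4. KO 5 and WT 4 were again the lowest arrays, and on these the probe was not well above background, so both values are near the limit of measurement. The difference was −1.05 ± 0.99 (limma adjusted p = 0.841). Its neighbour in the gene cluster, Dsg1b, gave −1.26, −1.23, −0.47, −0.83 and −2.17 on KO 1 to KO 5, against 0.29, 0.18, 0.02 and −2.46 on WT 1 to WT 4. All 5 KO arrays lay below WT 1, WT 2 and WT 3, and WT 4 lay below all of them. The difference was −0.70 ± 0.57 (limma adjusted p = 0.803). Because the mouse Dsg1 genes are close relatives, cross-binding between their probes is possible and the split of signal among them is uncertain.

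Dsc3, the desmocollin of the lower layers of stratified epithelium, varied with this set. It had levels of −1.67, −2.26, −1.47, −1.81 and −2.79 on KO 1 to KO 5, against −0.40, −0.66, 0.46 and −3.52 on WT 1 to WT 4. The KO arrays kept close together, while the WT arrays spread over nearly 4 log2 units because of WT 4, where the probe was not well above background. The difference was −0.97 ± 0.68 (limma adjusted p = 0.769). A second Dsc3 probe, which crosses an intron, gave −4.02, −4.41, −3.91, −3.56 and −4.97 on KO 1 to KO 5, against −2.28, −2.52, −1.51 and −4.11 on WT 1 to WT 4. It was well above background on 3 of 5 KO arrays and 3 of 4 WT arrays, and in a fit over all probes kept it differed by −1.57 ± 0.48 (unadjusted p = 0.0080, limma adjusted p = 0.423). The direction of both probes was the same.

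Single arrays moved these 4 differences a good deal, WT 4 above all. Without it, Dsc1 lay at −2.32 ± 0.78, Dsg1a at −2.09 ± 0.71, Dsc3 at −1.80 ± 0.35 and Dsg1b at −1.36 ± 0.33. These did not pass the test either, with limma adjusted p of 0.205, 0.208, 0.0583 and 0.106 in that order, and 0 of 10 desmosome genes were called, against 0.686% of all genes. At an unadjusted p below 0.05 there were 6 of 10, 5 of them lower, against 16.2% of all genes and 8.02% lower. Over the remaining arrays the genotypes did not overlap for these 4 genes and for Jup, all lower in KO. These are 5 of 10 desmosome genes, against 12.1% of all genes in either direction and 6.18% lower. The margin was narrow for Dsg1a (KO 4 at −1.14, WT 2 at −1.12) and for Jup (KO 4 at −1.02, WT 3 at −0.91). WT 4 was the lowest WT array for each of these 5, so leaving it out favours this outcome in advance. Nothing is concluded from the count. Without KO 5 the difference was −0.88 for Dsc1, −0.49 for Dsg1a, −0.78 for Dsc3 and −0.46 for Dsg1b. Without WT 1, Dsg1a lay at −0.56 and Dsg1b at −0.44, and without WT 3, Dsg1a lay at −0.65 and Dsc3 at −0.47.

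**Figure D2:**
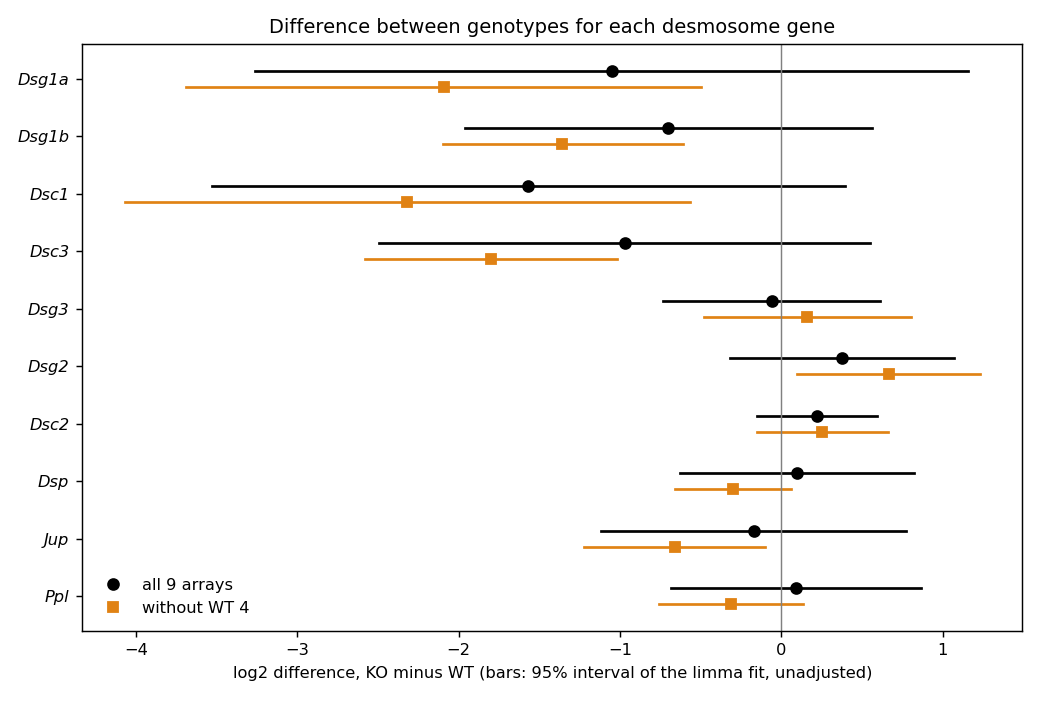
The x axis is the log2 difference, KO minus WT, and each desmosome gene has a row. Black circles are the fit to all 9 arrays and orange squares the fit without WT 4, with bars for the unadjusted 95% interval. All 10 black intervals include 0, and without WT 4 those of Dsg1a, Dsg1b, Dsc1, Dsc3 and Jup lie below 0 and that of Dsg2 above it.

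The cadherins that simple epithelium also uses had slightly higher means in KO than in WT, with overlapping groups and without passing the test. Dsg2, the desmoglein of simple epithelium and heart, had levels of 1.85, 2.24, 1.61, 1.14 and 1.38 on KO 1 to KO 5, against 0.76, 1.25, 0.93 and 2.14 on WT 1 to WT 4. WT 4, the lowest WT array for the genes above, was here the highest, second to KO 2 among all arrays. The difference was 0.37 ± 0.31 (limma adjusted p = 0.813), or 0.67 ± 0.25 without WT 4 (limma adjusted p = 0.244). A second Dsg2 probe at position 487 differed by 0.31 ± 0.38 and followed the first across the arrays (Pearson r = 0.926, n = 9), while another Dsg2 probe stayed near background on all 9 arrays.

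Dsc2, the desmocollin found most widely in epithelia, was the steadiest member. Its levels were 3.02, 2.99, 3.43, 2.91 and 3.32 on KO 1 to KO 5, against 2.83, 3.14, 2.67 and 3.02 on WT 1 to WT 4. The groups overlapped, and neither KO 5 nor WT 4 stood out. The mean was 3.13 ± 0.23 in KO (SD, n = 5) and 2.91 ± 0.20 in WT (SD, n = 4), a difference of 0.22 ± 0.17 (limma adjusted p = 0.790) with a 95% interval of −0.15 to 0.59. All 7 cadherin genes lie in 1 cluster on chromosome 18, where Dsc2 sits between Dsc3 and Dsc1 and Dsg2 lies at the end behind Dsg3. Dsc2 did not follow its neighbour Dsc1 across the arrays (r = −0.642, n = 9), whereas Dsc1 and Dsg1a, which are also close in the cluster, varied together.

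Dsg3, the desmoglein of the lower layers and the classic antigen of pemphigus vulgaris, was read differently by its probes. The probe used, at position 4030, gave 1.36, 0.71, 1.29, 0.18 and 1.23 on KO 1 to KO 5, against 0.71, 0.60, 1.08 and 1.68 on WT 1 to WT 4. The probe at position 2824 gave 0.04, −0.26, 0.65, −0.28 and 0.56 on KO 1 to KO 5, against 0.25, 0.57, 0.91 and −0.51 on WT 1 to WT 4. WT 4 was thus the highest array by the first probe and the lowest by the second, and the probes were uncorrelated over all arrays (r = 0.050, n = 9; 0.519 without WT 4). The difference was −0.06 ± 0.30 (limma adjusted p = 0.984) by the first and −0.16 ± 0.32 by the second, so both put the genotypes within the spread between mice. One more Dsg3 probe was well above background on WT 1 alone. Which probe reads Dsg3 more faithfully was not tested.

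**Figure D3:**
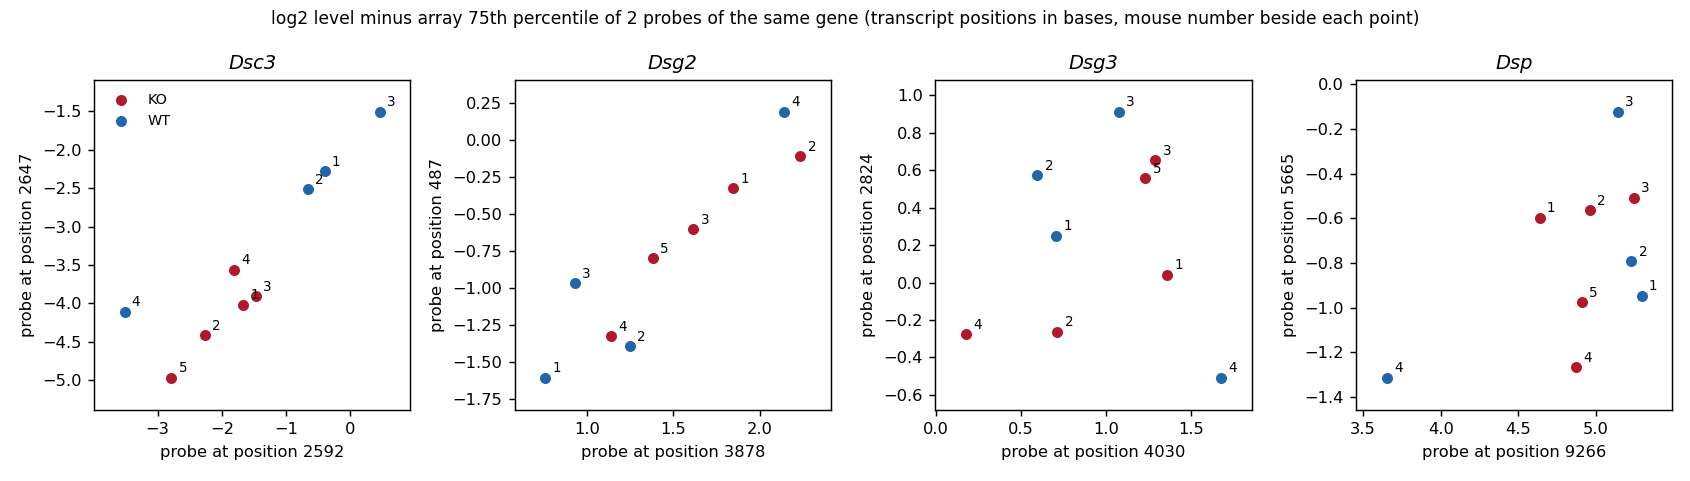
Each panel sets the levels of 2 probes of 1 gene against each other across the 9 arrays (axes in log2 minus the array's 75th percentile, probe named by its position in the transcript in bases), KO in red and WT in blue, with the mouse number beside the point. The Dsg2 and Dsc3 probes rise together apart from WT 4 in Dsc3, whereas in Dsg3 and Dsp the points scatter and WT 4 lies alone in a corner.

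The cytoplasmic members had small fitted differences over all 9 arrays, but their 95% intervals were wide. Dsp, the plakin that holds the keratin filaments, had levels of 4.64, 4.96, 5.24, 4.87 and 4.91 on KO 1 to KO 5, against 5.30, 5.23, 5.14 and 3.65 on WT 1 to WT 4. WT 4 was the only array below 4.6, and KO 5 lay in the middle of its group, unlike in Dsc1 and Dsg1a. The difference was 0.10 ± 0.33 (limma adjusted p = 0.974, 95% interval −0.63 to 0.82) and it turned to −0.30 ± 0.16 without WT 4 (limma adjusted p = 0.388). The coding probe printed above gave a difference of 0.01 ± 0.26, with −0.60, −0.56, −0.51, −1.27 and −0.97 on KO 1 to KO 5, against −0.95, −0.79, −0.12 and −1.31 on WT 1 to WT 4. By this probe WT 4 was close to KO 4 and did not stand alone. The Dsp probes followed each other only in part (r = 0.528, n = 9; 0.166 without WT 4).

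Jup, which binds the cadherin tails and is a relative of beta-catenin, had levels of −1.89, −1.79, −1.11, −1.02 and −1.15 on KO 1 to KO 5, against −0.86, −0.42, −0.91 and −2.69 on WT 1 to WT 4. All KO arrays lay below WT 1, WT 2 and WT 3, and WT 4 lay below all others. The difference was −0.17 ± 0.42 (limma adjusted p = 0.961), and −0.66 ± 0.25 without WT 4 (limma adjusted p = 0.243).

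Ppl, read on chromosome 16, had levels of 4.52, 4.68, 5.31, 4.57 and 4.73 on KO 1 to KO 5, against 5.15, 5.16, 4.91 and 3.46 on WT 1 to WT 4. KO 3 was the highest array and WT 4 the lowest, and the groups overlapped. The difference was 0.09 ± 0.35 (limma adjusted p = 0.979) and it turned to −0.31 ± 0.20 without WT 4 (limma adjusted p = 0.467). The spread between WT mice was 0.81 (SD, n = 4) and came from WT 4, since the other WT arrays had an SD of 0.14.

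Across the arrays the genes varied in partly overlapping sets. Dsg1a, Dsg1b, Dsc1 and Dsc3 varied together, with Pearson r from 0.825 to 0.948 over the 9 arrays and from 0.811 to 0.980 without WT 4. KO 5, the lowest KO array for each of them, is still in the latter values. Without both WT 4 and KO 5, r ran from 0.707 (Dsg1a with Dsg1b) to 0.956 (Dsg1a with Dsc1). Dsp, Jup and Ppl also varied together, with r of 0.979 between Dsp and Ppl, 0.886 between Dsp and Jup and 0.866 between Jup and Ppl, and of 0.927, 0.736 and 0.651 without WT 4. For Dsp these values rest on the probe used, which correlated with the coding Dsp probe at 0.528, and at 0.166 without WT 4. The 2 sets are not separate, as Dsg1b correlated with Dsp at 0.792, with Ppl at 0.789 and with Jup at 0.785, and without WT 4 at 0.747, 0.675 and 0.637. Dsg2 ran against both, most of all against Jup (r = −0.812, and −0.782 without WT 4). Dsc2 had no relation to Dsp (r = 0.034). These values describe 9 arrays that share a normalisation and an array that stands apart, and are given without a test.

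**Figure D4:**
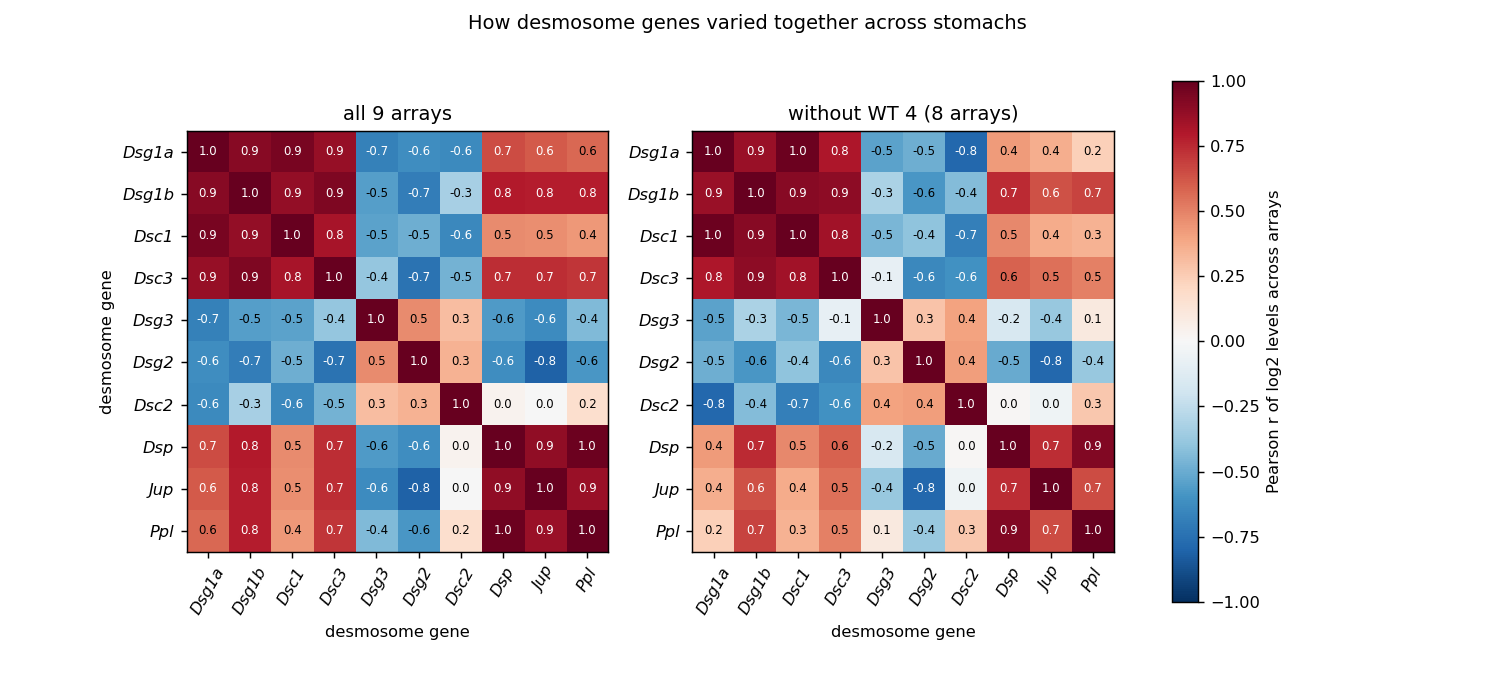
Both grids give Pearson r between the log2 levels of pairs of desmosome genes across arrays, from −1 in blue to 1 in red, on the left over all 9 arrays and on the right over the 8 without WT 4. A block of Dsg1a, Dsg1b, Dsc1 and Dsc3 at the upper left and a block of Dsp, Jup and Ppl at the lower right are seen in both, and Dsg3, Dsg2 and Dsc2 are mostly blue against the first block.

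Genes outside the list with the most similar pattern over the 9 arrays were named for each member. For Dsc1 these included Krt1, the keratin of cornifying upper layers (r = 0.985), together with Camkk1 (0.989) and Serpina9 (0.982). Dsg1b was followed by Klk8 (0.990), a kallikrein protease of cornifying epithelium, besides Ankrd44 and Tacr3. For Dsc3 they were Lgals7 (0.977), a galectin of stratified epithelium, Azin2 and Asah2, and for Jup Med25 and Krt80 (0.988). Ltbp2, Dkkl1 and Cma1 were closest to Dsg1a, Tprg, Myl7 and Ptpn13 to Dsp, and Ptpn13 and Uchl5 to Ppl. Closest to Dsg2 were Galntl6, Ociad2 and Drc1, to Dsg3 Arl14ep, Gab2 and Slc39a9, and to Dsc2 Ctbp2, Marchf8 and Pdzd8. The mean of the scaled members was matched most closely by Flvcr2, Crabp2, Wfdc5, Krt5 and Fdps, all with r of at least 0.980. With 21723 genes and 9 arrays, high values are found for nearly any pattern.

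The marker list of squamous differentiated cells and the mean of the desmosome genes shared their 2 lowest arrays, KO 5 and WT 4. Relative to the WT mean, the mean of the 15 squamous differentiated cell genes was −0.42, −0.27, −0.03, 0.20 and −1.77 on KO 1 to KO 5, against 0.45, 0.60, 0.71 and −1.77 on WT 1 to WT 4. KO 5 and WT 4 were thus equally low for this list. For Dsc1 they were also the lowest of their groups, but KO 5 (−3.78) lay far below WT 4 (−1.70). The 10 pit and neck cell genes were 0.76 to 1.20 on the KO arrays, against −0.32, −0.04, −0.28 and 0.64 on WT 1 to WT 4, so that WT 4 was the WT array nearest to the KO arrays. The mean of the 10 squamous basal cell genes stayed within −0.24 to 0.17 in KO and −0.22 to 0.23 in WT. Single basal genes moved in opposite directions on WT 4, which this mean hides. Krt5 (5.97) and Krt14 (1.89) were lower there than on WT 1, WT 2 and WT 3, and Trp63 (4.34) and Itga6 (6.64) were higher. Of the single genes, 10 squamous differentiated genes lay lower and 5 higher in KO, and all 10 pit and neck genes lay higher, of which Gkn2, a gastrokine, passed the test (limma adjusted p = 0.0252), where 0.129% of all genes were called higher and 53.0% had a fitted difference above 0. Of the general epithelial genes 8 of 10 lay higher, and of the smooth muscle genes 7 of 8 lay lower. The part of these cell types in the desmosome values was not tested.

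**Figure D5:**
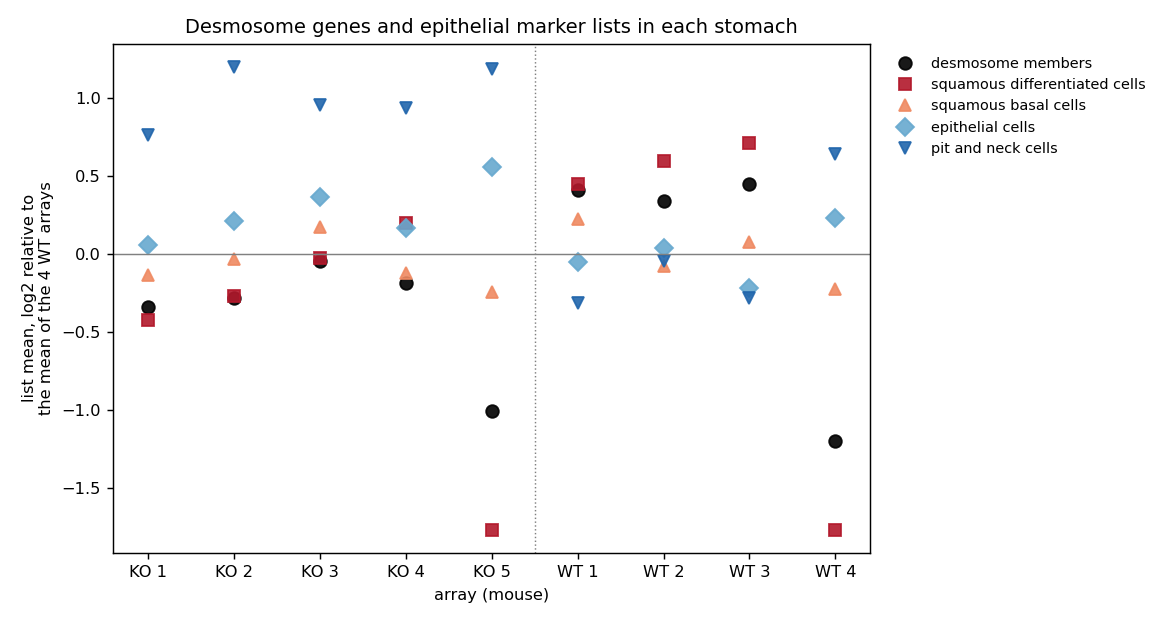
For each array (KO 1 to KO 5 on the left, WT 1 to WT 4 on the right), points give the mean of a gene list in log2 units relative to the mean of the 4 WT arrays, for the 10 desmosome genes and 4 marker lists. On KO 5 and WT 4 the squamous differentiated list is at −1.77 and the desmosome list at −1.01 and −1.20, while the basal list stays within −0.24 to 0.23 on all arrays.

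Arrays shared glass slides, and slides 1 and 4 held both genotypes. On slide 1, with KO 4 and KO 5 against WT 3 and WT 4, Dsc1 differed by −1.68, Dsc3 by −0.77, Dsg1a by −0.48, Dsg1b by −0.28, Dsg2 by −0.28, Dsg3 by −0.67, Dsc2 by 0.27, Dsp by 0.50, Jup by 0.71 and Ppl by 0.46. On slide 4, with KO 2 against WT 1 and WT 2, the values were −1.42 for Dsc1, −1.74 for Dsc3, −1.37 for Dsg1a, −1.47 for Dsg1b, 1.23 for Dsg2, 0.06 for Dsg3, 0.0076 for Dsc2, −0.30 for Dsp, −1.14 for Jup and −0.48 for Ppl. Dsc1, Dsc3, Dsg1a and Dsg1b had the same direction on both slides, and Dsg2, Dsp, Jup and Ppl did not. Dsc2 and Dsg3 were close to 0 on slide 4, so their direction there is not read. Slide 4 had 1 KO array. Slide 1 held KO 5 and WT 4, on which the Dsg1a probe was not well above background.

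Of the other genes of the desmosome, 8 of 9 were tested and none changed (0.207% of all genes did), with 6 lower and 2 higher and a median of −0.21. At an unadjusted p below 0.05 there was 1 of 8, against 8.84% of all genes and 3.45% lower, so 1 gene is close to the background. That gene was Dsg1c, the remaining mouse Dsg1 gene. It had levels of −1.47, −2.25, −1.64, −1.89 and −2.89 on KO 1 to KO 5, against −0.97, −1.03, −0.38 and −2.23 on WT 1 to WT 4. Here too WT 4 lay among the KO arrays, and the difference was −0.88 ± 0.39 (unadjusted p = 0.0486, limma adjusted p = 0.562).

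The plakophilins bridge cadherin tails and desmoplakin. Pkp1 of stratified epithelium lay at −0.04 ± 0.32, Pkp3 at −0.33 ± 0.21, Pkp2 of simple epithelium and heart at 0.34 ± 0.23 and Pkp4 at 0.07 ± 0.19 (log2 differences, KO minus WT, with limma SE). None of these passed the test. Pkp1 was at its lowest on WT 4 (3.96, against 4.88 to 5.51 on KO arrays and 5.38 to 5.52 on the other WT arrays), whereas Pkp2 was at its WT highest there (2.10), so that the pair followed Dsp and Dsg2 on that array. Envoplakin (Evpl), the partner of Ppl, lay at −0.26 ± 0.35, Perp, a membrane protein that desmosomes of stratified epithelium need, at −0.16 ± 0.29 and corneodesmosin (Cdsn), which holds cornified cells together, at −0.29 ± 0.24. Dsg4, the desmoglein of hair, stayed near background on all 9 arrays and was not tested.

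None of the tested genes of the structures around the desmosome was called, which with 0.207% of all genes called is close to the background. The 10 adherens junction genes (5 higher, 5 lower) had a median of 0.06, with Ctnna1 at 0.38 ± 0.17 and Ctnnb1 at 0.32 ± 0.17, and the 9 hemidesmosome genes (5 higher, 4 lower) one of 0.14, with the plakin Plec at −0.33 ± 0.13 and Lamb3 at 0.28 ± 0.16. The 16 keratins that desmosomes can anchor (10 higher, 6 lower) had a median of 0.21. Krt20 of pit cells was nearest to the threshold at 1.18 ± 0.26 (limma adjusted p = 0.188), and Krt6b of stratified epithelium lay at −2.53 ± 0.83 (limma adjusted p = 0.414). The 11 proteases and inhibitors that govern desmosome shedding (4 higher, 7 lower) had a median of −0.27, with the inhibitor Spink5 at −1.11 ± 0.54 and Klk6 at −1.18 ± 0.84. The 15 regulators of stratified epithelium (8 higher, 7 lower) had a median of 0.02, with Tfap2c at −0.58 ± 0.22 and Ovol1 at −0.88 ± 0.37.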

How the data were processed

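Stomachs of 5 KO and 4 WT newborn mice were read on 1 Agilent array each. Per the file headers, the authors made the spot intensity with Feature Extraction 10.5.1.1 (the submitters' processing notes name 9.1), with background subtraction, spatial detrending and surrogate values for dim spots, and annotated probes on mm9. The flags, of other kind, are as deposited. The deposited series matrix holds the authors' log2 values of the same arrays, in the same direction, with an unknown centre per probe. In it, KO columns had medians of 0.0436, 0.217, −0.124, 0.0347 and −0.137, and WT columns of −0.279, −0.161, 0.224 and 0.381.

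Outlier spots and 3671 control spots were left out, spots of a probe were averaged on the log2 scale, and each array's 75th percentile over the 55681 probes was subtracted. A probe was kept where at least 4 of 9 arrays had it well above background (30190 probes), and 21 probes that lacked a value on some array were left out. The kept probe with the highest mean stood for its gene, and levels of different probes are not compared. The number of arrays limits the precision. Of all probes, 26762 matched RefSeq names (GRCm38.p6) by accession. KO and WT were compared with limma 3.58.1 (R 4.3.3, two-sided, Benjamini-Hochberg over 21723 genes, threshold 0.05, no covariate). The fit and its adjustment were tested on simulated gene levels with independent noise. The steps before the fit, and an array that stands apart as WT 4 does, were not part of that simulation. SE is limma's moderated standard error. Whether the mice came from separate litters is not given.

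The desmosome genes and all lists were chosen with earlier results of these data known. Named are all 10 members with every probe, Cebpb, the other desmosome genes, members of the surrounding lists past the threshold or else the 2 with the smallest p, and for each member the 3 genes (5 for their mean) with the highest Pearson r, of which 2 genes are not reported here. Likeness was computed on log2 levels. Of the marker lists, Nppa and Gkn2 are named as the genes past the threshold, and the others are given as list means or counts.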

Additional observations from a re-analysis of the deposited data

Results flagged for a closer look

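Over 22 groups (10 desmosome genes and Cebpb in each genotype), 6 had a highest or lowest array set apart from its group by a gap that is large for the group's range. Chance gives about 5% of groups, and the 6 are not independent, since 4 are the same array. WT 4 was low among WT for Dsg1b (−2.46, next array 0.02), Dsc1 (−1.70, next 1.00), Dsp (3.65, next 5.14) and Ppl (3.46, next 4.91). KO 5 was low among KO for Dsc1 (−3.78, next −0.68). KO 3 was high among KO for Ppl (5.31, next 4.73). All values are log2 levels minus the array's 75th percentile.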

How the results depend on the processing

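No desmosome gene was called with all arrays or with any other scaling, filter, covariate or left-out array that was tried singly, and among the other desmosome genes the count was 0 throughout. With both KO 5 and WT 4 left out, an alternative chosen after seeing the data, 1 desmosome gene was called (Dsc1, −1.63, limma adjusted p = 0.0353). Dsg1a, Dsg1b, Dsc1, Dsc3, Dsg2 and Dsc2 kept their direction in every fit. With a covariate for Y-linked signal they lay at −0.89, −0.375, −1.04, −0.58, 0.56 and 0.29 in that order. Dsg1a, Dsg1b, Dsc1 and Dsc3 were thus smaller in size than without a covariate, and Dsg2 and Dsc2 larger. Over all genes tested, 45 were called, and this total was 25 without the filter on dim probes, 5 with slide as a block (KO 1 and KO 3, alone on their slides, then do not count), 5 with a covariate for Y-linked signal, 562 with array weights (0.215 for WT 4, 3.92 for WT 2) and 155 without both KO 5 and WT 4. Of the 45, the number still called was 23, 4, 5, 45 and 37 in the same order. Leaving out 1 array at a time gave 10 to 149, the highest without WT 4 and the lowest without WT 1. The replicate block, which drops KO 5, gave 4 genes and no desmosome gene. Whether the numbers pair the mice is not given in the labels. Deviations of same-numbered arrays correlated at −0.305, 0.122, 0.153 and −0.482, and 2 of 4 KO arrays correlated best with their own number, which does not settle it. Differences that turned were those of Dsg3 with the Y-linked covariate (0.29), Dsg3 (0.30), Dsp (−0.22) and Ppl (−0.24) with array weights, and Dsg3 (0.0921), Dsp (−0.29) and Ppl (−0.31) without both arrays. Leaving out 1 array at a time they ranged from −0.20 to 0.16 for Dsg3, −0.30 to 0.25 for Dsp, −0.66 to 0.10 for Jup and −0.31 to 0.25 for Ppl, with the cause not tested. Dsg1a and Dsc3 gave no value where probes had to be well above background on all arrays.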
